A study of Mus musculus with 8 samples.

Results

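The islet hormone genes are the genes for the peptides that the endocrine cells of the pancreas release, and 8 of them were followed here in pancreata of NOD mice, compared with NOD.B10 mice. They are the insulin genes *Ins1* and *Ins2*, *Iapp* (amylin), *Gcg* (glucagon), *Sst* (somatostatin), *Ppy* (pancreatic polypeptide), *Pyy* (peptide YY) and *Ghrl* (ghrelin). The members are 8 of the 21597 gene symbols on the array, taken by their symbol. They have 12 of the 34850 probes with a symbol, since *Ins2*, *Gcg*, *Pyy* and *Ghrl* have a pair each.

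Whole pancreata of 8 female NOD mice, 12 weeks old, were each compared on a two-color array with a single pool of RNA from 8 age-matched NOD.B10 mice. NOD mice develop autoimmune diabetes, and NOD.B10 mice share their background but carry another H2 haplotype (H2b) and are protected. The labels name no treatment. The NOD mouse was always labeled red (Cy5) and the pool green (Cy3), so a difference between the strains and a difference between the dyes cannot be told apart, and the pool gives no spread between NOD.B10 mice. Values are log2 ratios of the NOD mouse over the pool, where 0 is an equal signal and each step of 1 is a 2-fold difference. Replicates 1 to 4 were on slide 1 and replicates 5 to 8 on slide 2, and the grid of replicates 5, 6 and 7 was not rated good by the scanning software. Red was well above background in 21.6% to 35.3% of the spots and green in 57.6% to 60.7%. No spot was saturated in either dye on any of the 8 arrays.

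Islets are small clusters of endocrine cells within the exocrine pancreas. Insulin from beta cells lowers blood glucose and is stored with amylin in the same granules, whereas glucagon from alpha cells raises blood glucose. Somatostatin from delta cells restrains the release of the other hormones, and pancreatic polypeptide, peptide YY and ghrelin come from smaller islet populations and from the gut. In NOD mice the immune attack is directed at beta cells. In whole pancreas, fewer cells of a type and less RNA per cell cannot be told apart.

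The stretches before the annotated starts of 4 hormone genes show how the genes of different islet cells differ at the sequence level. RefSeq promoter entries (build GRCm38.p6) were found for 7 of the 8 members, and *Ins2* had none. The 250 bases before the start are printed 5′ to 3′ on the strand of the gene. Capitals mark the cAMP response element TGACGTCA, the insulin E box GCCATCTG and the TATA box TATAAA on either strand, and these motifs do not overlap in the stretches shown.
Ins1, chr19:52264047-52264296, plus strand: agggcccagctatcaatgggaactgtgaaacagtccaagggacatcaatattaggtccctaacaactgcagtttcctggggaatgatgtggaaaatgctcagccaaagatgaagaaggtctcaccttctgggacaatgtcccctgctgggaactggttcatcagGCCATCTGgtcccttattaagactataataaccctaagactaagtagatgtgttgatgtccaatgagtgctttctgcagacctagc
Iapp, chr6:142298175-142298424, plus strand: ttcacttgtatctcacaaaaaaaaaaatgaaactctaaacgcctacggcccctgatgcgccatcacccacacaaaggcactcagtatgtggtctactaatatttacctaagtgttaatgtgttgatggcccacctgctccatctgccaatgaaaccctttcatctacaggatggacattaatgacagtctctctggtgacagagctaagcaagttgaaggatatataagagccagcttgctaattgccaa
Gcg, chr2:62483654-62483903, minus strand: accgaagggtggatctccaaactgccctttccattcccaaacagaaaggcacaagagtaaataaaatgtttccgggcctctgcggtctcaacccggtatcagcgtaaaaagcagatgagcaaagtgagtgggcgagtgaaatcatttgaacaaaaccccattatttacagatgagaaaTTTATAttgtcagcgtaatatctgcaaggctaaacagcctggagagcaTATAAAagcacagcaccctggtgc
Sst, chr16:23890845-23891094, minus strand: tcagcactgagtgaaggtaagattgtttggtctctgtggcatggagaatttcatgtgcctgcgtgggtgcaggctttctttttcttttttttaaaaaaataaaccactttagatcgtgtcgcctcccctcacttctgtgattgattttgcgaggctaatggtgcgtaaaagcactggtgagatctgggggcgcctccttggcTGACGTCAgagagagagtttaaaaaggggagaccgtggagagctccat
The cAMP response element lay 48 bases before the start of *Sst* and in none of the other 3 stretches, and 1.55% of the 32851 promoters in the table held it. The E box lay 86 bases before the start of *Ins1*, and 1.11% of promoters held it. *Gcg* had a TATA box 24 bases before its start and a reverse copy at 72 bases, and 12.4% of promoters held one. A match describes these letters only.

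*Ins1* and *Ins2* encode the pair of mouse insulins. The *Ins1* probe (A_51_P312755, chr19:52318117-52318176 in the array's mm8 annotation) gave log2 ratios of -2.34, -1.99, -0.73 and -0.28 in replicates 1 to 4 and of -0.12, 0.30, 0.59 and -0.28 in replicates 5 to 8. Insulin signal was thus far below the pool in 2 mice, at 19.8% and 25.2% of it, and near or above it in most of the others. With background-subtracted signals that were only centered, replicates 6 and 7 lay below the pool as well (-1.10 and -0.77). The mean was -0.61 ± 1.04 (SD, n = 8), with a limma adjusted p of 0.27 over all probes tested. The brighter *Ins2* probe (A_52_P407060, chr7:142488160-142488219, minus strand, mm8) followed the same mice, with 23.7% and 30.7% of the pool in replicates 1 and 2 and up to 158% in replicate 7. Its mean was -0.38 ± 1.01 (SD, n = 8, adjusted p = 0.49 by limma). The 95% interval of this mean reached from -1.17 to 0.41, which holds a level more than 2-fold lower as well as a level slightly above the pool.

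The other *Ins2* probe (A_51_P389597, chr7:142488140-142488199, minus strand, mm8) shares 40 bases with the first and was printed in 10 spots. It gave a mean of -0.43 ± 0.83 (SD, n = 8, adjusted p = 0.33 by limma), and the SD between its 10 spots was at most 0.24 on any array. The SD between spots leaves out the error of labeling, hybridization and processing. The ratios of the probes correlated with r = 0.99 over the 8 arrays, but they share a gene, most of their sequence and every hybridization. *Ins1* and *Ins2* also resemble each other: windows of 60 bases along the *Ins2* transcript matched *Ins1* in a median of 52 bases and in up to 59, so signal could be split between the probes of these genes. By comparison, *Ppy* and *Pyy* matched in at most 36 of 60 bases.

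The insulin probes lay among the brightest on the array. The green signal of the brighter *Ins2* probe ranged from 139323 to 174858 on the 8 arrays, and only 60 probes of the 41174 were brighter. Its highest raw green signal was 41604, well under the saturation value of 779241. Green is the same pool on each array, so its spread holds no difference between mice, but it leaves out the error of red labeling and of processing. The log2 green signal of that probe had an SD of 0.10 and the log2 red signal an SD of 0.99. Among 54 probes of like brightness (within 0.5 on the log2 scale), the median SD of the ratio over the arrays was 0.18, and 0 had an SD as large as that of *Ins2*.

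**Figure D1:**
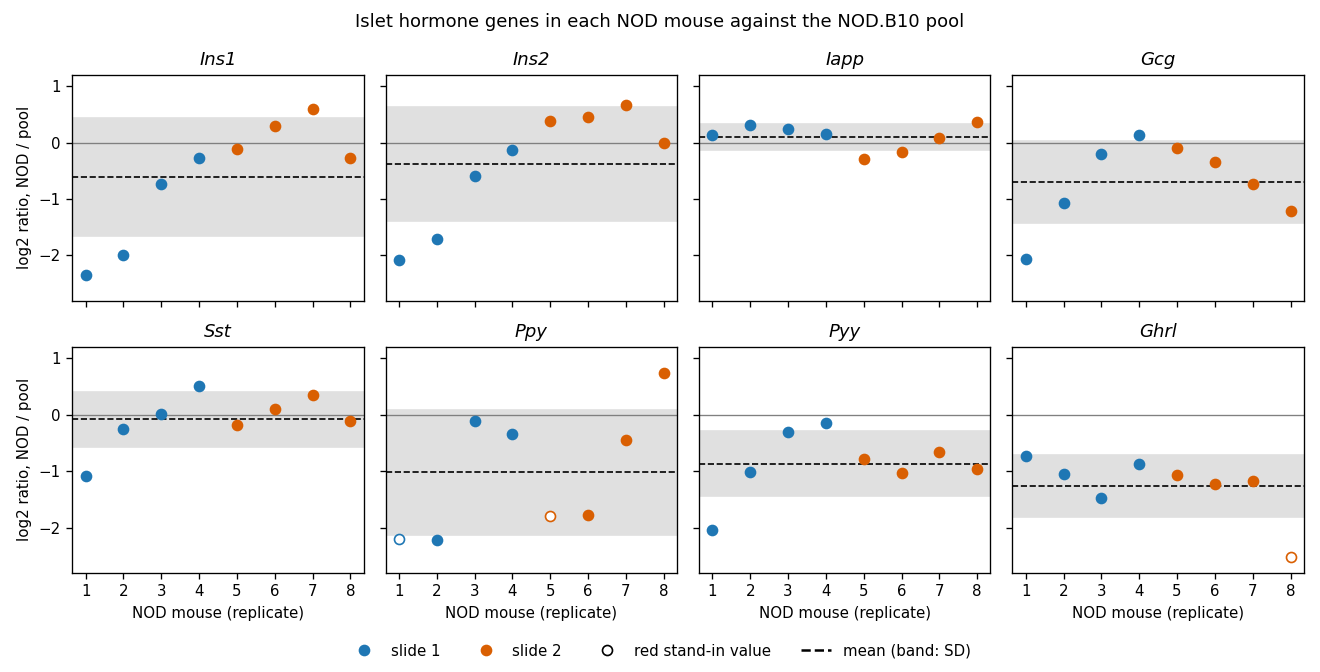
Log2 ratio of each NOD mouse over the NOD.B10 pool (y axis) for the brightest probe of each hormone gene, by replicate (x axis), with slide 1 in blue and slide 2 in orange. Dashed lines are means and gray bands are ± SD over the 8 arrays; open points have a stand-in red value. Replicates 1 and 2 have the lowest *Ins1* and *Ins2* ratios (-2.34 and -1.99 for *Ins1*), and all 8 mice lie below 0 for *Pyy* and *Ghrl*.

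*Iapp*, which beta cells co-release with insulin, stayed near the pool in all 8 mice. Its probe (A_51_P119841, chr6:142260777-142260836, mm8) ranged from 81.3% to 129% of the pool, with a median of 111%. Its ratio was above 0 in replicates 1 and 2 (0.14 and 0.31), the mice with the lowest insulin signal, and r with *Ins1* was -0.44 (exact permutation p = 0.27, adjusted p = 0.47 over 21 pairs, rho = -0.60, exact permutation p = 0.13). The mean was 0.10 ± 0.23 (SD, n = 8, adjusted p = 0.43 by limma). Red was well above background on only 4 of the 8 arrays (replicates 1 to 4), and the mean was -0.66 from background-subtracted, centered signals and -0.13 after normexp correction and loess, so no direction is given for *Iapp*. With the centered signals the *Iapp* means were 0.02 on slide 1 and -1.35 on slide 2.

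*Gcg* encodes the precursor of glucagon and, in gut cells, of the GLP peptides. Its 10-spot probe (A_51_P406253, chr2:62275467-62275526, minus strand, mm8) gave -2.06, -1.08, -0.20 and 0.13 in replicates 1 to 4 and -0.10, -0.34, -0.74 and -1.22 in replicates 5 to 8. Glucagon signal was thus below the pool in 7 of 8 mice, most of all in replicates 1, 8 and 2, and its median was 68.7% of the pool. The mean was -0.70 ± 0.73 (SD, n = 8), with a limma adjusted p of 0.084, above the threshold of 0.01. The SD between the 10 spots was at most 0.16. A weak probe in another part of the locus (A_52_P534383, chr2:62281577-62281636, minus strand, mm8), annotated to the cDNA AK050538, gave 1.08 ± 1.39 (SD, n = 8, adjusted p = 0.15 by limma). Its red signal was well above background on only 1 array and was a stand-in value on 2, so it says little on *Gcg*.

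*Sst*, the somatostatin gene of delta cells, had the mean nearest to 0 among the 5 genes with red well above background on all 8 arrays. Its 10-spot probe (A_51_P262489, chr16:23805039-23805098, minus strand, mm8) ranged from 47.1% of the pool in replicate 1 to 143% in replicate 4, with a median of 96.5%. The mean was -0.08 ± 0.48 (SD, n = 8, adjusted p = 0.76 by limma), with a 95% interval from -0.46 to 0.29. Without replicate 1 the mean was 0.06. With the centered signals the mean over the 8 arrays was -0.42 (limma adjusted p = 0.097), and after normexp and loess -0.35 (limma adjusted p = 0.085).

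*Ppy* encodes pancreatic polypeptide and *Pyy* its neighbor and relative, peptide YY. The brighter *Pyy* probe (A_51_P241733, chr11:101922766-101922825, minus strand, mm8) was below the pool in 8 of 8 mice, from 24.1% in replicate 1 to 89.9% in replicate 4, with a median of 54.7%. The mean was -0.87 ± 0.58 (SD, n = 8), with a limma adjusted p of 0.020 that did not pass the threshold of 0.01. The exact two-sided sign-flip test gave p = 0.0078, the smallest value that 8 arrays allow. The other *Pyy* probe (A_52_P366462, chr11:101923087-101923146, minus strand, mm8) put all 8 mice below the pool as well (mean -0.67 ± 0.47, SD, n = 8, adjusted p = 0.026 by limma). The probes ranked the mice differently, with r = 0.63 between them, and on slide 2 the brighter minus the weaker was -0.17 with the deposited ratios and 1.42 with the centered signals. *Ppy* (A_52_P460791, chr11:101916357-101916653, minus strand, mm8) gave a mean of -1.02 ± 1.11 (SD, n = 8, adjusted p = 0.097 by limma) and ranged from 21.5% of the pool in replicate 2 to 166% in replicate 8. Its red signal was well above background on only 2 arrays and a stand-in value on 2, so most of its low ratios lie near the background. The mean of *Ppy* was -1.02 with the centered signals (limma adjusted p = 0.031) and -0.12 after normexp and loess.

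*Ghrl*, the gene for ghrelin, was the only hormone gene called, which needed a change of 2-fold or more together with an adjusted p below 0.01. The brighter probe (A_51_P464000, chr6:113682884-113684891, minus strand, mm8, across introns) gave -0.73, -1.06, -1.48 and -0.88 in replicates 1 to 4 and -1.06, -1.23, -1.18 and -2.52 in replicates 5 to 8. Ghrelin signal was lower in all 8 mice, at a median of 46.0% of the pool. The mean was -1.27 ± 0.55 (SD, n = 8), 2.40-fold lower, with a standard error of 0.19 and a limma adjusted p of 0.0044. Without replicate 8, whose red value was a stand-in, the mean was -1.09 (limma adjusted p = 0.0015). Leaving out replicate 2, 3, 4, 5, 6 or 7 took the adjusted p above 0.01, to between 0.0113 and 0.0148.

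The *Ghrl* signal was low, which limits this result. Its green signal ranged from 193 to 567 although the pool was the same on every array, an SD of 0.50 on the log2 scale. Red was well above background on 5 arrays. The mean was -0.96 from background-subtracted, centered signals and -0.26 after normexp and loess, both under 2-fold. The other *Ghrl* probe (A_52_P675556) had a stand-in red value on all 8 arrays and did not pass the filter on signal.

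**Figure D2:**
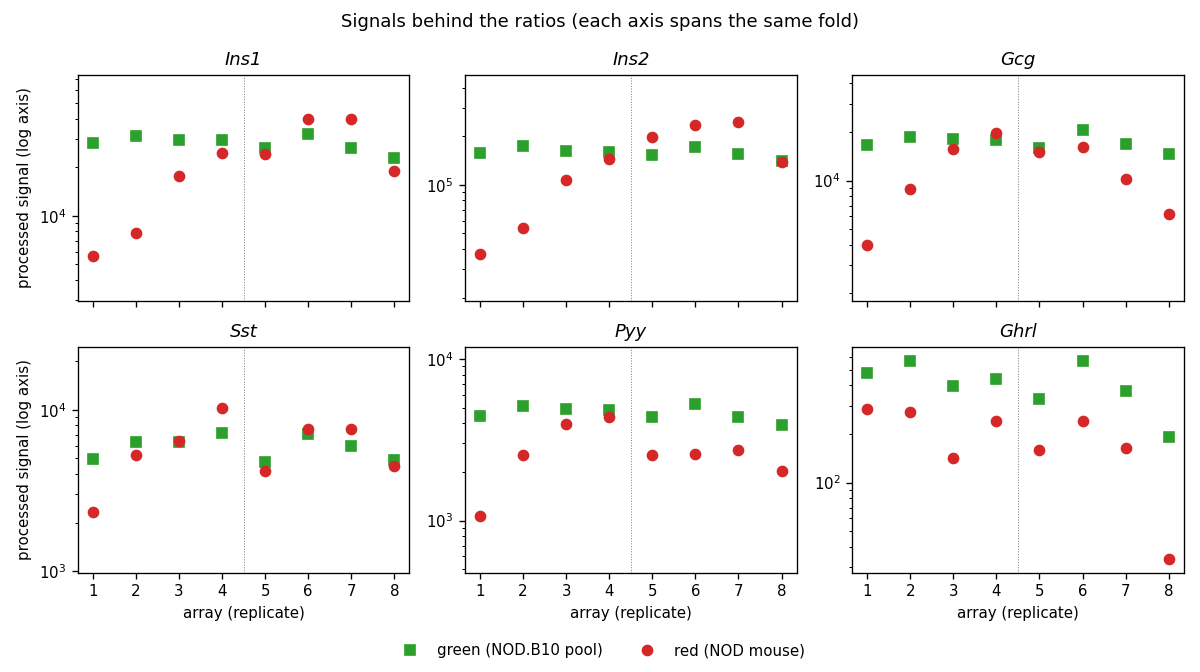
Processed signal (log y axis, each panel spanning the same fold) of the NOD mouse (red circles) and the NOD.B10 pool (green squares) on each of the 8 arrays (x axis), with the dotted line between slides. Green of *Ins1* stays between 22942 and 32215 while its red goes from 5601 to 39862, and for *Ghrl* both dyes are low, with green from 193 to 567.

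In all, 11 of the 12 member probes passed the filter (a red processed signal of at least 25 on at least 4 arrays) and 1 of these, *Ghrl*, was called lower. Of all 28105 probes tested, 1.41% were called lower and 0.31% higher, and no member was called higher. Ratios below 0 in 8 of 8 mice were seen for 3 of the 11 probes, both of *Pyy* and 1 of *Ghrl*, where 9.4% of all probes tested had them. The median ratio of all genes tested was -0.08.

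The mean ratios of the hormone genes moved with the way the signals were processed. With background-subtracted signals that were only centered, the median of all probes tested lay 0.16 higher than with the deposited ratios, yet *Ins1* was lower, at -1.04 (limma adjusted p = 0.0044), and passed the threshold, as did the weaker *Pyy* probe at -1.34 (limma adjusted p = 0.0012). The difference for the insulin genes lay on slide 2. The mean of *Ins1* on slide 2 was 0.12 with the deposited ratios and -0.72 with the centered signals, while on slide 1 the means were -1.33 and -1.36. For *Ins2* on slide 2, the single-spot probe went from 0.37 to -0.81 and the 10-spot probe from 0.12 to 0.36. The first *Ins2* probe minus the second was therefore 0.25 on slide 2 with the deposited ratios and -1.17 with the centered signals, which are not detrended, although they share 40 bases. The part of position on the array in this was not tested. After normexp and loess the 10-spot probe had a mean of 0.50 over the 8 arrays, above the pool. The low insulin signal of replicates 1 and 2 was present with either processing, at -2.38 and -2.09 for *Ins1* with the centered signals.

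**Figure D3:**
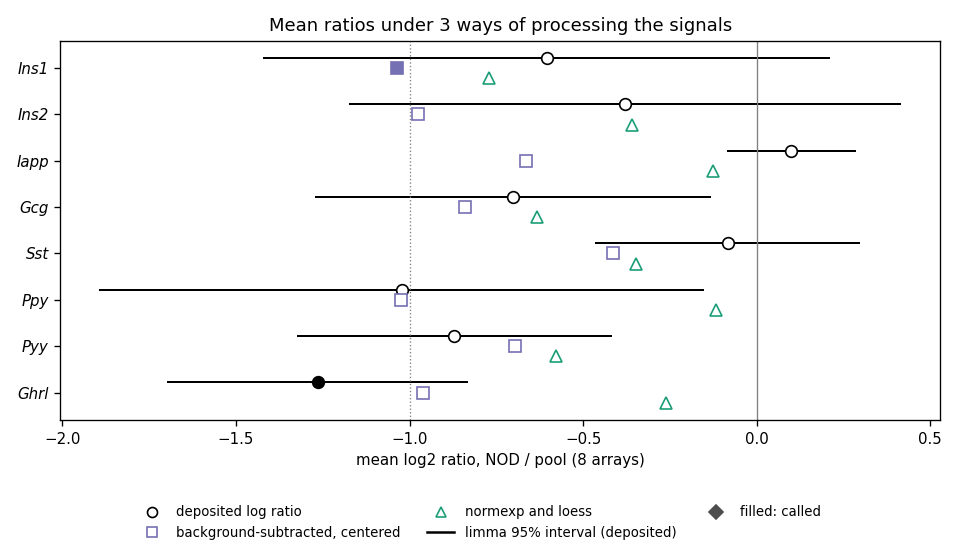
Mean log2 ratio over the 8 arrays (x axis) of the brightest probe of each hormone gene under the deposited ratios (circles, with the limma 95% interval), background-subtracted and centered signals (squares) and normexp with loess (triangles). Filled symbols passed the threshold of 2-fold and an adjusted p under 0.01, which were *Ghrl* (-1.27) with the deposited ratios and *Ins1* (-1.04) with the centered signals; *Iapp* lies on both sides of 0.

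The arrays fall on 2 slides, and with the deposited ratios the insulin genes differed most between them. The mean of *Ins2* was -1.13 ± 0.91 (SD, n = 4) on slide 1 and 0.37 ± 0.28 (SD, n = 4) on slide 2, a difference of 1.495 (exact permutation p = 0.029, the smallest that 4 against 4 allows; 0.23 adjusted over the 8 hormone genes). The 10-spot *Ins2* probe differed by less, 1.09 (exact permutation p = 0.086). *Ins1* differed by 1.45 (exact permutation p = 0.057). The other 6 genes differed by between -0.46 and 0.40, with exact permutation p values of 0.23 to 0.97. With the centered signals *Ins2* differed by 0.33 (exact permutation p = 0.60) and *Ins1* by 0.64 (exact permutation p = 0.34), and *Iapp* differed most, by -1.38 (exact permutation p = 0.029). Mice differ between slides too, so a difference of the slides and one of the mice on them cannot be told apart.

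Comparing the genes within each array removes a shift of a mouse or an array that is equal across genes. It does not remove one that depends on signal or position. Of the 21 pairs among the 7 genes with enough signal (all but *Ppy*), 4 differed in exact two-sided sign-flip tests, each with an adjusted p of 0.041 over the 21 pairs. *Sst* was higher than *Pyy* in 8 of 8 mice, by 0.79 ± 0.26 (SD, n = 8) on the log2 scale. *Iapp* was higher than *Pyy* by 0.97 ± 0.61 and higher than *Ghrl* by 1.37 ± 0.68 (SD, n = 8), also in 8 of 8 mice, but red of *Iapp* was well above background on none of the arrays of slide 2. *Ins1* was lower than *Ins2* in 8 of 8 mice, but only by 0.23 ± 0.13 (SD, n = 8). None of the 4 passed with the centered signals or with normexp and loess. *Gcg* was lower than *Sst* in 7 of 8 mice, by 0.62 ± 0.44 (SD, n = 8), with an adjusted exact p of 0.055.

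The insulin genes could not be told from glucagon in the mean, but their order turned between the slides. *Ins1* minus *Gcg* was -0.28, -0.91, -0.53 and -0.41 in replicates 1 to 4 and -0.02, 0.64, 1.33 and 0.94 in replicates 5 to 8. *Ins1* was thus the lower of the pair in every mouse of slide 1 and the higher in 3 of 4 mice of slide 2. The mean over the 8 mice was 0.10 ± 0.79 (SD, exact sign-flip p = 0.73), and the slides differed by 1.25 (exact permutation p = 0.029, the smallest possible, not adjusted over pairs). The shift was not limited to glucagon. *Ins1* minus *Sst* went from -1.13 on slide 1 to 0.09 on slide 2. *Ins1* minus *Pyy* went from -0.45 to 0.98 and *Ins1* minus *Ghrl* from -0.30 to 1.62. Each of these, and the same pairs of *Ins2*, had that same exact permutation p. With the centered signals the mean of *Ins1* minus *Gcg* over the 8 mice was -0.20, and on slide 2 *Ins1* and *Gcg* lay at -0.72 and -0.84.

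**Figure D4:**
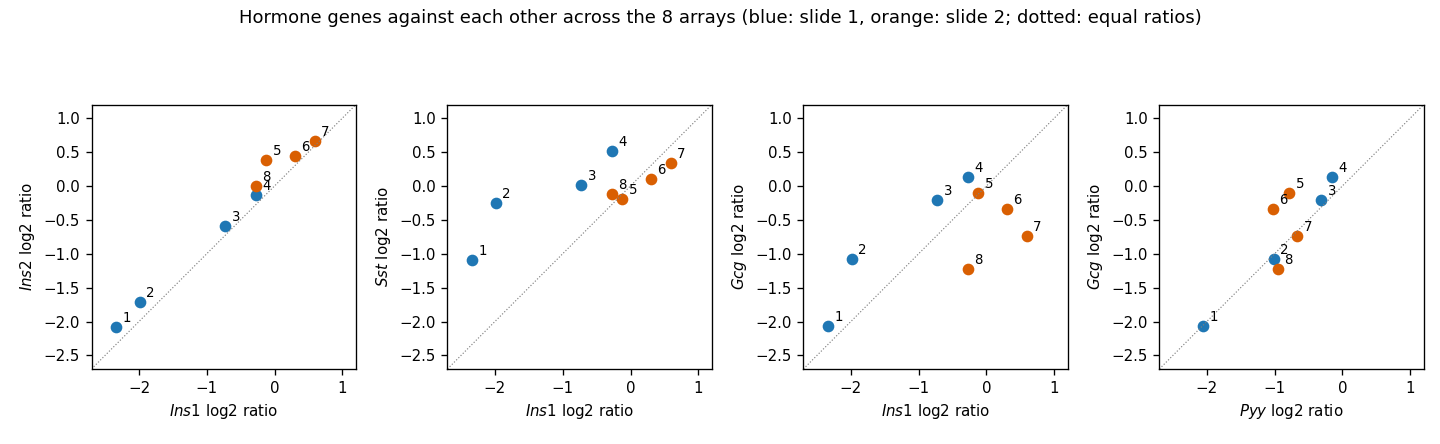
Log2 ratios of pairs of hormone genes against each other over the 8 arrays, numbered by replicate (blue slide 1, orange slide 2; dotted line, equal ratios). *Ins1* and *Ins2* lie along a line, whereas for *Ins1* and *Gcg* replicates 1 to 4 lie above the dotted line and replicates 6 to 8 below it.

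Across the arrays, *Ins1* and *Ins2* went together (r = 0.99, exact permutation p = 5.0e-05, adjusted p = 0.001 over 21 pairs; rho = 0.98, exact permutation p = 0.0004), and r was 0.94 without the 2 arrays farthest from the median of *Ins1*. With the mean of each slide removed r was still 0.99, with an exact permutation p of 0.0035 and an adjusted p of 0.055. The transcripts of *Ins1* and *Ins2* are alike, so signal could be split between their probes, which limits this correlation. *Gcg* and *Pyy* had r = 0.88 (exact permutation p = 0.0052, adjusted p = 0.054; rho = 0.74, exact permutation p = 0.046), *Sst* and *Pyy* r = 0.90 (exact permutation p = 0.0081, adjusted p = 0.057; rho = 0.69, exact permutation p = 0.069), *Ins1* and *Sst* r = 0.79 (exact permutation p = 0.014, adjusted p = 0.072; rho = 0.71, exact permutation p = 0.058) and *Gcg* and *Sst* r = 0.81 (exact permutation p = 0.018, adjusted p = 0.075; rho = 0.62, exact permutation p = 0.12). None of these passed the adjustment. Replicate 1 was lowest in *Ins1*, *Ins2*, *Gcg*, *Sst* and *Pyy*. Without it r was 0.68 for *Gcg* and *Pyy* and 0.49 for *Gcg* and *Sst*, and without the 2 farthest arrays, r was 0.65 for *Gcg* and *Pyy*, 0.33 for *Sst* and *Pyy*, 0.31 for *Ins1* and *Sst* and 0.42 for *Gcg* and *Sst*. *Ins1* and *Gcg* had r = 0.66 (exact permutation p = 0.079; rho = 0.48, exact permutation p = 0.24) and -0.25 without the 2 farthest arrays. With the mean of each slide removed r was 0.88 for *Gcg* and *Pyy*, 0.92 for *Sst* and *Pyy*, 0.92 for *Ins1* and *Sst*, 0.81 for *Gcg* and *Sst*, 0.83 for *Ins1* and *Gcg* and -0.11 for *Ins1* and *Iapp*, and none of the 21 pairs passed the adjustment then. No correlation of *Ghrl* with another hormone gene passed the adjustment, and r lay between -0.42 and 0.07 over its 6 pairs. With the mean of each slide removed, r of *Iapp* and *Ghrl* was -0.83 (exact permutation p = 0.033, adjusted p = 0.091).

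The genes most like a hormone gene over the 8 arrays, among 6186 genes other than the 8 hormone genes with both dyes above background on every array, are given as a description. For *Sst* the 5 with the highest r were *Ptpn6* (r = 0.97), *Resp18* (0.95), *Nek7* (0.94), *Chgb* (0.93) and *Lypla1* (0.91). *Chgb* and *Resp18* encode proteins of endocrine secretory granules. For *Gcg* they were *Kif12* (0.97), *S100a11* (0.92), *Grpel2* (0.91), *Herpud2* (0.87) and *Tmem16a* (0.87). For *Ins2* they were *2310073E15Rik* (0.95), *B230317F23Rik* (0.95), *Taz* (0.95), *Tmem30b* (0.95) and *BC024868* (0.94), and these ranged over far less than *Ins2* did, between -0.46 and 0.96.

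Hormones are cut from precursors by proconvertases and packed with granins. Of 14 such processing and granule genes, 13 were on the array and tested, 1 was called lower, none higher, and the median ratio was -0.48, beside -0.08 for all genes tested. All 13 had a mean below 0, as with the centered signals (median -0.46) and after normexp and loess (median -0.22). Of all genes tested, 59.0% had a mean below 0 with the deposited ratios, 49.3% with the centered signals and 54.6% after normexp and loess. The called gene was *Ptprn* (the granule autoantigen IA-2), at -1.09 ± 0.55 (SD, n = 8, adjusted p = 0.0077 by limma). Its red was well above background on 1 array, and its mean was -0.69 with the centered signals and -0.047 after normexp and loess. The next lowest were *Slc30a8*, the zinc transporter of insulin granules, at -0.78 ± 0.54 (limma adjusted p = 0.024), and *Scg3* at -0.74 ± 0.86 (limma adjusted p = 0.12). Red of *Slc30a8* was above background on no array. Its mean was -0.59 with the centered signals and -0.034 after normexp and loess, and that of *Scg3* was -1.27 and -0.32. The highest were *Pam* (-0.31), *Chgb* (-0.17) and *Ptprn2* (-0.14). The mean over the list was lowest in replicates 1 and 2 (-1.17 and -0.91), the mice with the lowest insulin signal, and lay between -0.60 and -0.15 in the others.

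Of 14 transcription factors of the hormone genes, all were on the array, 12 were tested and none was called, with a median ratio of -0.43, which was -0.011 with the centered signals and -0.034 after normexp and loess. Lower with an adjusted p under 0.01 but under 2-fold were *Foxa2* (-0.54, limma adjusted p = 0.0015) and *Isl1* (-0.67, limma adjusted p = 0.0088), named after their values were seen; red of *Isl1* was above background on no array, and its mean was 0.05 with the centered signals. The lowest were *Nkx2-2* (-0.76), *Nkx6-1* (-0.75) and *Pdx1*, an activator of the insulin genes, at -0.70 ± 0.51 (SD, n = 8, adjusted p = 0.029 by limma). Red was above background on no array for *Nkx2-2*, on 4 for *Nkx6-1* and on 1 for *Pdx1*. Their means were -0.77, -1.48 and -1.06 with the centered signals and -0.055, -0.29 and -0.095 after normexp and loess. Among the highest with green well above background on at least 4 arrays were *Pax6* (-0.31) and *Hhex*, which marks delta cells. *Hhex* was at 0.37 ± 0.37 (SD, n = 8, adjusted p = 0.075 by limma).

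Of 18 genes for receptors of the hormones, 16 were on the array and 13 tested, with a median of -0.24, which was -0.027 with the centered signals and -0.044 after normexp and loess. *Npy4r*, the receptor for pancreatic polypeptide, was called lower at -1.09 ± 0.54 (SD, n = 8, adjusted p = 0.0070 by limma), but red was above background on no array. Its mean was -0.43 with the centered signals and -0.04 after normexp and loess. *Sstr4*, a somatostatin receptor, was 0.58 ± 0.27 (SD, n = 8, adjusted p = 0.0059 by limma), above the pool in 8 of 8 mice and below 2-fold. The receptor genes named next were ranked among those with green well above background on at least 4 arrays. The lowest beside *Npy4r* were *Gcgr* (-0.93, limma adjusted p = 0.031) and *Insr* (-0.81, limma adjusted p = 0.013), both with red above background on no array. With the centered signals their means were -1.30 and 0.23, and after normexp and loess -0.17 and -0.0056. The highest beside *Sstr4* were *Glp1r* (0.44, limma adjusted p = 0.32) and *Sstr3* (-0.12, limma adjusted p = 0.82).

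Markers of other cells that the samples hold are given beside the hormones. None of 10 beta cell genes tested (11 listed) was called and all 10 had a mean below 0 (median -0.69), beside 59.0% of all genes tested, but red was well above background on 4 or more arrays for only 5 of them. With the centered signals 9 of the 10 were below 0 (median -0.71) and after normexp and loess 8 (median -0.10). The deposited ratios put *Ucn3* lowest, at -1.08 (limma adjusted p = 0.016), with a stand-in red value on 7 arrays. Of 8 alpha cell genes none was called (median 0.01), from *Gc* at -0.71 to *Irx1* at 0.49. The 10 T cell genes had a median of 0.60, from *Cd8a* at -0.12 to *Lck* at 2.30 (green well above background on 2 arrays), and the mean over the list lay between 0.40 and 1.28 in the 8 mice, always above 0. The 8 B cell genes had a median of 0.46 (*Pax5* at -0.41 to *Cd79b* at 1.18) and the 9 myeloid genes 0.19 (*Cd14* at -0.10 to *Itgax* at 1.56). None of these leukocyte genes was called. Of the T cell genes 1 was higher with a limma adjusted p under 0.01 but under 2-fold, and no B cell or myeloid gene was. Red was well above background on 4 or more arrays for 5 of the T cell, 3 of the B cell and 7 of the myeloid genes. Their medians were 0.89, 0.87 and 0.051 with the centered signals and 0.19, 0.029 and 0.035 after normexp and loess, and those of the alpha cell genes 0.44 and 0.054.

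The 11 acinar genes tested had a median of 0.05 (*Rbpjl* at -0.41 to *Ctrb1* at 0.54) and the 8 duct genes -0.09 (*Cftr* at -0.66 to *Muc1* at 0.08), with none called. With the centered signals these medians were 0.35 and -0.45, and after normexp and loess 0.79 and -0.086. *Gcg*, *Pyy* and *Ghrl* are also made in the gut. Of 13 intestine genes 9 were tested and 1, *Vil1* (-1.28, limma adjusted p = 0.0095), was called lower, with *Gip* highest at 0.37; red of the intestine genes was well above background on at least 4 arrays for 0 of the 9. Of 9 liver genes tested, 3 were called lower (*Fgb* lowest at -3.05, *Tat* highest at 0.13), and of 7 adipocyte genes none was called (*Plin1* at -1.04 to *Fabp4* at -0.17). The liver genes had a median of -0.77 with 7 of 9 below 0, and the adipocyte genes -0.91 with 7 of 7 below 0. With the centered signals these medians were -0.53 and -0.94, and after normexp and loess -0.085 and -0.12. None of 35 relations between 5 hormone genes and 7 of these lists across the 8 arrays passed an adjusted p of 0.05. The closest was *Sst* with the B cell list (r = 0.85, exact permutation p = 0.0032, adjusted p = 0.11; rho = 0.76, exact permutation p = 0.037; r = 0.73 without the 2 farthest arrays and 0.92 with the mean of each slide removed). *Ins1* had r = -0.12 with the T cell list (exact permutation p = 0.76; rho = -0.14, exact permutation p = 0.75), and 0.70 with the mean of each slide removed (exact permutation p = 0.057). The part of these cells in the hormone ratios was not tested further.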

How the data were processed

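Labeled RNA of each NOD pancreas and of the NOD.B10 pool was hybridized to 4×44K Agilent arrays, and the authors extracted the spots with Agilent Feature Extraction (version 10.7.3.1). For every spot, the authors deposited a log10 ratio (red to green), processed signals of both dyes, which are intensity values after background subtraction, spatial detrending and linear and lowess dye normalization, and a score for stand-in values where a signal could not be told from background. Here log10 ratios were converted to log2 and spots of a probe averaged. Probes with a symbol whose red processed signal reached 25 on 4 or more arrays (28105 probes, 18505 genes) entered limma (version 3.58.1, run in R 4.3.3), which tested each mean ratio against 0, and p was adjusted by Benjamini-Hochberg. Calls needed 2-fold and an adjusted p under 0.01. On simulated data with 200 probes of 28105 changed 3-fold, the test recovered 124 and made 0 false calls. Exact tests (Python 3.11.15, numpy 2.4.6, scipy 1.17.1) used all 256 sign flips of the arrays, all 70 splits of 4 against 4, and all 40320 pairings. Of several probes of a gene, the one with the highest mean signal was the main one. Text names every member, the called and the 3 highest and 3 lowest genes of the processing, receptor and factor lists with green above background in at least 4 arrays, the highest and lowest of each cell list, and the 5 genes most like *Ins2*, *Gcg* and *Sst*. A few genes that this rule names are not reported here. The members and lists were chosen with earlier results of these data known. Alternatives were the plain statistic, other filters, the ratio of processed signals, background-subtracted signals centered on each array, normexp (offset 50) with loess, irregular spots left out, the median, slide as a covariate, other thresholds, other probes and each mouse left out. Leaving out the arrays not rated good, each slide alone, and the other probes in the pairs were added after the values had been seen. The labels do not say whether any mice were littermates. The number of arrays limits the precision.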

Additional observations from a re-analysis of the deposited data

Results flagged for a closer look

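Of the 11 hormone probes tested for a mouse far from the others, 2 were picked out. *Pyy* (A_51_P241733) was at -2.05 in replicate 1, with the other 7 mice between -1.03 and -0.15. *Ghrl* (A_51_P464000) was at -2.52 in replicate 8, where its red value was a stand-in, with the other 7 mice between -1.48 and -0.73. Chance alone picks out about 1 in 20 such groups.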

How the results depend on the processing

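The number of called hormone probes (1 with the deposited ratios) was 2 with centered signals, 0 with normexp and loess, 0 without the arrays not rated good, 0 on slide 1 or slide 2 alone, and 0 to 1 when a mouse was left out. It was 1 under the other alternatives. *Ghrl* kept its direction throughout, with a mean of -0.96 with centered signals, -0.26 with normexp and loess, -1.33 without the arrays not rated good, -1.04 on slide 1 alone, -1.49 on slide 2 alone, and -1.34 to -1.09 with a mouse left out. In these alternatives and the rest its limma adjusted p lay between 0.00071 and 0.12. *Ins1* was called with centered signals (-1.04). On slide 2 alone the mean was 0.12 for *Ins1*, 0.37 for *Ins2*, -0.0088 for *Iapp* and 0.035 for *Sst*, each opposite to the mean of all arrays. *Iapp* was also -0.66 with centered signals and -0.13 with normexp and loess, the weak *Gcg* probe was 1.08, and *Sst* lay between -0.17 and 0.059 with a mouse left out, above 0 without replicate 1. *Ppy* and *Pyy* kept their direction and stayed uncalled in all alternatives of their brighter probe. The cause of these changes was not tested.

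Of the 21 pairs compared within arrays, 4 passed, and 0 passed with centered signals, with normexp and loess, with the other probes of *Ins2* and *Pyy*, or with any mouse left out, where the smallest exact p is 0.0156. The sign turned for 8 of the 21 pairs with normexp and loess and for 8 with centered signals, none of them a pair that had passed. Among the 10 pairs followed through all alternatives, it turned with normexp and loess for *Ins1* minus *Gcg* (-0.14), *Ins1* minus *Ghrl* (-0.51), *Sst* minus *Ghrl* (-0.088) and *Ins2* minus *Ghrl* (-0.10). It turned with centered signals for *Ins1* minus *Gcg* (-0.20), *Ins2* minus *Gcg* (-0.14), *Ins1* minus *Ghrl* (-0.077) and *Ins2* minus *Ghrl* (-0.016), and *Ins1* minus *Gcg* lay between -0.080 and 0.24 with a mouse left out. No gene differed between the slides after adjustment in any processing (unadjusted, the exact permutation p was under 0.05 for *Ins2* with the deposited ratios, for *Iapp* and not *Ins2* with centered signals, and for 0 genes with normexp and loess). The difference of slide 2 minus slide 1 turned for *Sst* (-0.20 with normexp and loess, -0.30 with centered signals) and *Ghrl* (0.22 and 0.18). Of the 21 correlations 1 passed, 3 with the red signal alone, 2 with normexp and loess, 0 with slide means removed, and 1 to 3 with a mouse left out. No paired analysis was possible because the arrays form 1 group. Low red signal limits *Iapp*, *Ppy* and *Ghrl*.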
